A study of Mus musculus with 16 samples.

Results

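The endoplasmic reticulum folds, glycosylates and inspects the proteins that a cell exports or places in its membranes, and 34 genes of this machinery and of the stress response that controls it were followed here. The genes were chosen by name, with earlier results of these data known. Each was represented by the probe set that carried its symbol alone and had the highest mean over all 16 arrays. All 34 were among the 12394 genes with a probe set of their own, and 33 of them were among the 9252 genes that were bright enough to be tested. The gene left out of the tests was Ern1, which encodes the stress sensor IRE1. Its signals lay between 2.8 and 33 on the 16 arrays, below the filter at a signal of 35.4.

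The series compared mammary tumours of transgenic mice on an FVB/N background with normal mammary gland, and signals came from the Affymetrix 430A 2.0 mouse array. There were 3 arrays of normal gland, 7 of tumours that carried a constitutively active STAT5 (STAT5ca) and 6 of tumours that carried a C-terminally truncated STAT5 (STAT5Δ750). Arrays are named here by group and number. The labels give no age, reproductive stage or transgene promoter for any group, and they do not say whether each array came from a separate mouse, so p-values measure the spread between these samples.

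As background, 3 sensors in the membrane of the endoplasmic reticulum, IRE1, PERK and ATF6, start separate arms of the unfolded protein response when unfolded proteins accumulate. The IRE1 arm yields an active form of XBP1 by mRNA splicing, the ATF6 arm releases a transcription factor by proteolysis, and both raise the genes of chaperones, of the translocon and of degradation. The PERK arm slows protein synthesis and favours translation of ATF4, which raises genes of amino acid supply and feedback regulators of the response. In the mammary gland this machinery serves milk protein secretion. The arrays measured mRNA levels only, so neither splicing of Xbp1 nor the activity of a sensor was read.

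Promoters of some of these genes carry short elements through which the arms are known to act, and a few are shown to let the calls be read beside them. The ER stress element, read by ATF6 and XBP1 together with NF-Y, was searched as CCAAT, 9 bases of any kind and CCACG on both strands, from 250 bases before to 50 bases after each gene start in RefSeq annotation of build GRCm38.p6. The table held a promoter for 30 of the 34 members, and Manf, Derl1, Atf6 and Hyou1 had no entry. The element was found in 9 of the 30 members and in 39 of all 32851 promoters (0.119%). It includes a CCAAT box, which by itself was in 23 of the 30 members and in 37.4% of all promoters. It stood once in Hspa5, Calr, Canx, Creld2, Derl3, Dnajc3, Pdia6 and Syvn1, and at 2 places in Hsp90b1. Each line below gives the gene's strand of the element in capitals with 10 bases on each side, at chr2:34772015-34772053 (Hspa5), chr12:17266481-17266519 (Pdia6), chr8:84847065-84847103 (Calr) and chr19:6046522-6046560 (Syvn1). Hspa5 and Pdia6 passed the test in both tumour types, and Calr and Syvn1 stood for holders that did not. In Calr the element lay on the opposite strand and therefore reads as its reverse complement.
Hspa5: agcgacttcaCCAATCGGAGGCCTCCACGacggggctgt
Pdia6: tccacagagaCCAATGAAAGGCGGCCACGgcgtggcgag
Calr: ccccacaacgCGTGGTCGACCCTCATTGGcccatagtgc
Syvn1: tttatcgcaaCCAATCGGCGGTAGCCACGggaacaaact

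The ATF4 arm is read through another element, searched as TGATGNAA on both strands. It was found in 4 of the 30 members, Asns, Chac1, Herpud1 and Trib3, and in 3.97% of all promoters. The upstream copies are shown because Asns and Chac1 were the members of this arm that passed a test and that varied together. In capitals are the element of Asns, 23 bases before the start at chr6:7693215-7693242 with its flanks, that of Chac1, 193 bases before the start at chr2:119351039-119351066, and that of Herpud1, 112 bases before the start at chr8:94386307-94386334. In Chac1 and Herpud1 the element lay on the opposite strand. In Trib3 it began 15 bases after the start.
Asns: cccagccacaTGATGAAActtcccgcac
Chac1: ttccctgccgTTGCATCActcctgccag
Herpud1: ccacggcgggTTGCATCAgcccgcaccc
Herpud1 also held the second ER stress element (ATTGG, 1 base and CCACG), which Dnajb11 held as well and which 0.0365% of all promoters held. The UPRE (TGACGTGG) was in 0 of the 30 members and in 0.676% of all promoters. A STAT element (TTCNNNGAA) was in 1 member, Eif2ak3, and in 8.3% of all promoters. These matches describe letters in a window and were not tested for binding.

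**Figure D1:**
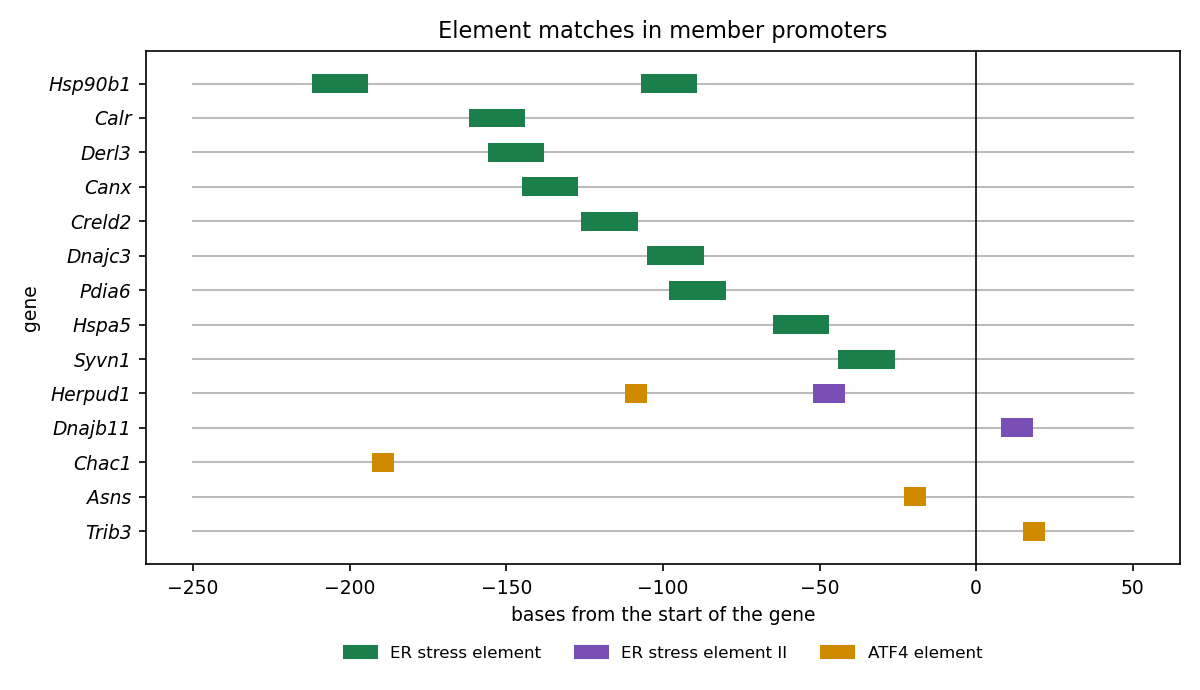
Positions of element matches in the members' promoters, in bases from the start of each gene (x axis), with 1 line per gene (y axis) over the 300 bases searched. Green bars are the ER stress element, purple bars the second ER stress element and orange bars the ATF4 element; the green bars lie between 212 and 26 bases before the start.

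Several properties of the samples bear on every comparison. Each array had been scaled to the same trimmed mean by the authors, and array medians ran from 57.3 to 90.7. STAT5ca_177 had a Krt8 signal of 25.3 where the other 6 STAT5ca tumours had 3836 to 5376, so the keratin that marks luminal epithelium was near the floor in a sample labelled mammary tumour. Stat5a signals were 392.3 to 682.8 in gland, 102.6 to 609.6 in STAT5ca and 98.6 to 587.0 in STAT5Δ750 tumours, and whether its probe set reads the transgenes is not given in the sources used here. Markers of B cells (7 of 7), T cells (7 of 7), adipocytes (7 of 7) and skeletal muscle (9 of 9) passed as lower in both tumour types. The summed muscle signal was 46993 to 56392 in gland, 109.6 to 4179 in STAT5ca tumours and 211.2 to 11542 in STAT5Δ750 tumours. Summed plasma cell markers were 11423 to 12683 in gland, 1134.0 to 8024 in STAT5ca tumours and 959.1 to 16251 in STAT5Δ750 tumours, with the highest value in STAT5Δ750_254. The defining marker Irf4 was at 161.4 to 173 in gland and at or below 49.2 in every tumour but STAT5Δ750_254, where it was 130.0. Of the 8 tested plasma cell markers, 4 were lower and 1 higher in STAT5ca and 3 lower and 1 higher in STAT5Δ750 tumours. Endothelial markers were lower for 6 of 7 in both tumour types, and markers of dividing cells were higher for 7 of 7 in both. Epithelial markers were higher for 1 of 11 in STAT5ca and 3 of 11 in STAT5Δ750 tumours, and 0 of 9 milk genes passed in either. Salivary and other exocrine markers summed to 34214 in STAT5Δ750_254, 5896 in STAT5ca_171, 3968 in STAT5ca_177 and 3124 in STAT5Δ750_174. They were 752.6 to 867.0 in gland and 103.9 to 1056 in the other tumours. The ratio of 3′ to 5′ actin probe sets, a sign of RNA quality, was 1.07 to 1.25 in gland, 1.76 to 5.38 in STAT5ca tumours and 1.27 to 3.52 in STAT5Δ750 tumours. All 13 tumours had a higher ratio than the 3 glands. In whole tissue, a change in the number of cells of a type and a change in RNA per cell cannot be told apart. The part of cell makeup in the results below was not tested. The actin ratio was tried as a covariate, but glands and tumours did not overlap in it. That fit therefore cannot tell RNA quality from the difference between tumour and gland.

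Against normal gland, 3 protein disulfide isomerases and the chaperone Hspa5 were higher in both tumour types. In STAT5ca tumours 4 of the 33 tested members were higher and 1 was lower, beside 6.72% of all 9252 genes called higher and 13.2% called lower. In STAT5Δ750 tumours 9 of the 33 were higher and 0 were lower, beside 7.61% and 14.0% of all genes. A call means an adjusted p under 0.05 in limma, with Benjamini-Hochberg adjustment over all 9252 genes. The members' median log2 change was 0.28 in both comparisons, while the median over all genes was -0.02 and -0.04. The percentage of members called higher was 12.1% for STAT5ca and 27.3% for STAT5Δ750. The 4 members higher in STAT5ca tumours (Hspa5, P4hb, Pdia4, Pdia6) were also higher in STAT5Δ750 tumours, but both comparisons used the same 3 glands. With 2 glands the calls depended on which gland was left out. Without gland_1 the members called higher fell to 1 in each comparison, beside 2.89% and 3.34% of all genes. Without gland_4 they fell to 0 for STAT5ca and 1 for STAT5Δ750, beside 2.37% and 2.63% of all genes. Without gland_6 they numbered 5 and 8, beside 4.2% and 4.71% of all genes called higher. The log2 changes without gland_1 or gland_4 are given with each gene below where its call was not kept. Pdia4 was the member that kept its call in STAT5Δ750 tumours without gland_1 and without gland_4. Without STAT5ca_177 the counts were 5 higher and 2 lower for STAT5ca and 9 higher and 1 lower for STAT5Δ750. In that fit 13.4% and 11.8% of all genes were called higher, and 1619 and 1658 of the 9252 were called lower. Without STAT5ca_124 and STAT5Δ750_254, the tumours with the highest lymphocyte marker sums, the counts were 3 higher and 1 lower, and 10 higher and 0 lower. Of all 9252 genes, 5.84% and 7.13% were called higher there, and 1223 and 1275 were called lower. STAT5ca_177 stayed in that fit and also held such markers, with sums of 807.9 for B cells and 456.1 for T cells. With the actin ratio as a covariate, 1 and 5 members were higher, beside 1.85% and 5.53% of all genes. Pdia4 was higher in both.

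**Figure D2:**
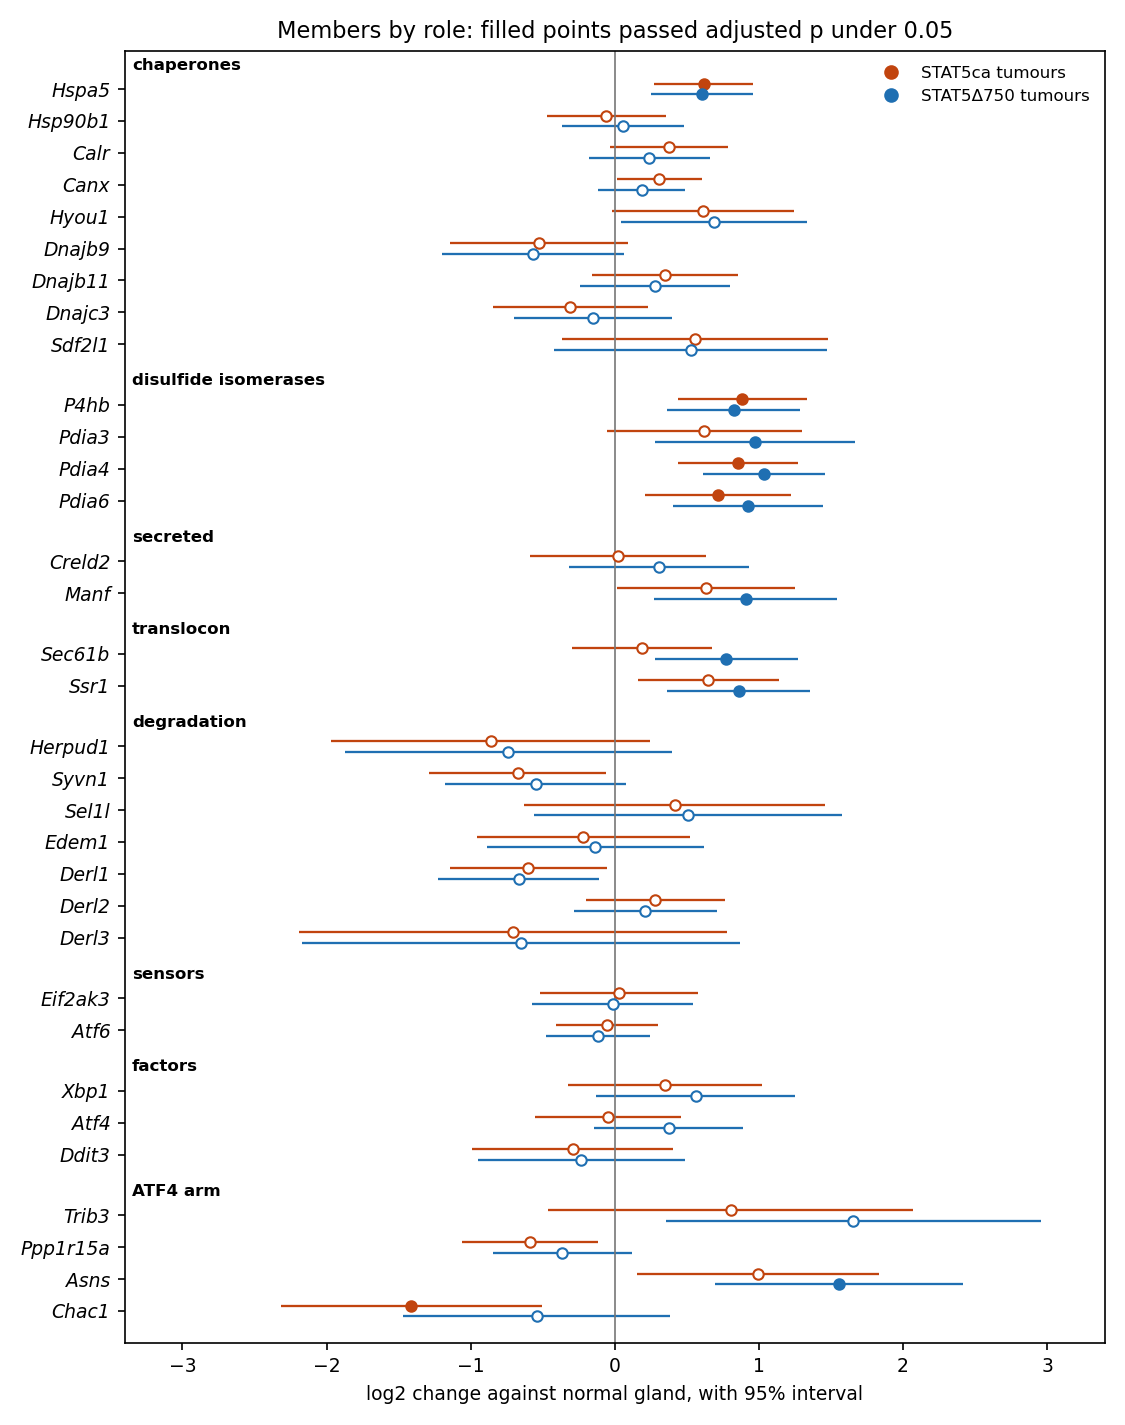
Log2 change of signal against normal gland with its 95% interval (x axis) for the 33 tested members (y axis), grouped by role; red is STAT5ca (7 arrays) and blue STAT5Δ750 (6 arrays) against the same 3 glands, and filled points passed the threshold. Filled points lie among the disulfide isomerases in both colours, and the 7 degradation genes have open points only.

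Hspa5 encodes BiP, the Hsp70 chaperone of the endoplasmic reticulum and the classical readout of its stress response. Its promoter is the one in which the ER stress element is best known, and the 250 bases before its start are shown for that reason, from chr2:34771840-34772089 on the plus strand in GRCm38.p6, with the exact element in capitals.
Hspa5 upstream: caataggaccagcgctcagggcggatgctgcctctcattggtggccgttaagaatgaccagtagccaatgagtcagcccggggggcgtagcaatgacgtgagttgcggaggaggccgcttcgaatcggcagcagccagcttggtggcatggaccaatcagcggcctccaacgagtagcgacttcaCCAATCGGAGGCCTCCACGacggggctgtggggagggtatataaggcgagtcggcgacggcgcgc
The Hspa5 signal was 2812, 2508 and 3193 on gland arrays 1, 4 and 6. It was 3757 to 4887 with a median of 4564 in STAT5ca tumours, and 3369 to 4722 with a median of 4442 in STAT5Δ750 tumours. All 13 tumours lay above the 3 glands, and the lowest tumour was STAT5Δ750_178. The log2 change was 0.62 ± 0.16 (SE; adjusted p = 0.0136) in STAT5ca and 0.60 ± 0.17 (adjusted p = 0.0172) in STAT5Δ750 tumours, a rise of 1.53-fold and 1.52-fold. Without gland_1 the log2 changes were 0.61 and 0.60 (adjusted p = 0.0612 and 0.0674), and without gland_4 they were 0.53 and 0.52 (0.101 and 0.112). With the actin ratio as a covariate they were 0.50 and 0.53 (0.165 and 0.0616), and with probe sets averaged the STAT5ca change was 0.51 (0.0667).

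The other 8 chaperones and cochaperones did not pass in either comparison by their chosen probe set. Hsp90b1 (GRP94), the Hsp90 of this compartment, had signals of 2037 to 2267 in gland, 1826 to 2894 in STAT5ca and 1691 to 2733 in STAT5Δ750 tumours, and its log2 changes were -0.06 and 0.06. The gland values thus lay within those of both tumour groups. Calr, the lectin chaperone calreticulin, had log2 changes of 0.38 and 0.24 and overlapped between gland and tumours. Its other 2 tested probe sets gave 0.65 ± 0.18 (adjusted p = 0.0211) and 0.69 ± 0.20 (adjusted p = 0.0253) in STAT5ca tumours, in a fit of all probe sets. Canx, its membrane-bound counterpart, was at 1985 to 2504 in STAT5ca tumours and 1612 to 1899 in gland, groups that did not overlap, with a log2 change of 0.31 ± 0.14 and an adjusted p of 0.134. Under median scaling the Canx change was 0.60 (adjusted p = 0.0197). Hyou1, a large chaperone and nucleotide exchange factor, had 0.61 and 0.69, and a second probe set gave 1.34 ± 0.38 (adjusted p = 0.0236) in STAT5Δ750 tumours.

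The J-domain cofactors of BiP are among these 8 genes. Dnajb9 (ERdj4) had log2 changes of -0.53 and -0.57, and Dnajb11 (ERdj3) had 0.35 and 0.28. With array quality weights Dnajb9 was called lower in both tumour types, at -0.72 (adjusted p = 0.00999) and -0.60 (0.0335). In that setting 2551 and 2468 of all 9252 genes were called lower. Among the chaperones, the weights also called Calr, Canx and Hyou1 higher in STAT5ca tumours and Hyou1 higher in STAT5Δ750 tumours. Dnajc3 (p58IPK), which also inhibits PERK, had -0.31 and -0.15 by its chosen probe set, and 1 of its other probe sets gave 0.99 ± 0.29 (adjusted p = 0.0271) in STAT5Δ750 tumours. Sdf2l1, a cofactor of these J proteins, ran from 212.5 to 868.4 in STAT5ca tumours and from 170.0 to 562.0 in STAT5Δ750 tumours around gland values of 216.4 to 322.1.

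All 4 protein disulfide isomerases, which form and rearrange disulfide bonds, passed in STAT5Δ750 tumours and 3 of the 4 passed in STAT5ca tumours. This stands beside 7.61% and 6.72% of all genes called higher. The median log2 change was 0.79 in STAT5ca and 0.95 in STAT5Δ750 tumours. Pdia4 (ERp72) had signals of 312.3, 280.2 and 504.5 on gland arrays 1, 4 and 6, of 535.8 to 751.0 with a median of 649.8 in STAT5ca tumours, and of 607.0 to 854.1 with a median of 730.3 in STAT5Δ750 tumours. Every tumour exceeded every gland, and gland_6 was the highest gland. Pdia4 rose by a log2 change of 0.86 ± 0.20 (adjusted p = 0.00579) and 1.04 ± 0.20 (adjusted p = 0.00202). Averaged over its probe sets the changes were 0.38 and 0.57, with adjusted p of 0.203 and 0.0604. Apart from the chosen probe set, what entered that average did not pass the filter. Without gland_4 the STAT5ca change was 0.69 (adjusted p = 0.0617).

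P4hb, the founding disulfide isomerase, had gland signals of 1664, 1646 and 2707. Its signals were 2794 to 4528 with a median of 3569 in STAT5ca tumours and 2854 to 3814 with a median of 3594 in STAT5Δ750 tumours, all above the glands. P4hb rose by a log2 change of 0.89 ± 0.21 (adjusted p = 0.00767) and 0.83 ± 0.22 (adjusted p = 0.0136). The changes were 0.77 and 0.71 (adjusted p = 0.0624 and 0.0846) without gland_1 and 0.76 and 0.70 (0.0670 and 0.0961) without gland_4. With the actin ratio as a covariate they were 0.71 and 0.72 (0.135 and 0.0562).

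Pdia6 (P5) had gland signals of 604.6, 450.3 and 894.4. It was at 925.4 to 1321 with a median of 976.1 in STAT5ca tumours, above all glands, and at 754.5 to 1540 with a median of 1285 in STAT5Δ750 tumours, where STAT5Δ750_178 fell below gland_6. Pdia6 rose by a log2 change of 0.72 ± 0.24 (adjusted p = 0.0447) and 0.92 ± 0.24 (adjusted p = 0.0143). The STAT5ca call lay close to the threshold. It was not kept in 19 of 29 other settings. The change was 0.69 (adjusted p = 0.146) without gland_1 and 0.48 (0.289) without gland_4. It was 0.65 (0.0643) under quantile normalization, 0.72 (0.0788) with probe sets averaged, 0.72 (0.0589) with only the 2 groups in the fit, 0.64 (0.246) with the actin covariate and 0.72 (0.0519) with the Gapdh covariate. The adjusted p was 0.0504 without the filter, 0.0745 without STAT5ca_124 and STAT5Δ750_254 together, and 0.0517 to 0.0679 without any 1 of STAT5ca_123, STAT5ca_124, STAT5ca_213, STAT5ca_159, STAT5ca_169, STAT5ca_171, STAT5Δ750_254, STAT5Δ750_92, STAT5Δ750_174 and STAT5Δ750_160. The STAT5Δ750 change was 0.90 (0.0614) without gland_1 and 0.69 (0.122) without gland_4.

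Pdia3 (ERp57), the isomerase that works with calnexin and calreticulin, had gland signals of 1364, 870.5 and 1923. It ran from 1386 to 3522 with a median of 1788 in STAT5ca tumours and from 1797 to 3609 with a median of 2516 in STAT5Δ750 tumours. Both tumour groups overlapped the glands. Pdia3 had log2 changes of 0.62 ± 0.32 (adjusted p = 0.190) and 0.97 ± 0.33 (adjusted p = 0.0442). The latter was as large without gland_1 (adjusted p = 0.114). It was 0.68 (0.260) without gland_4, 0.97 (0.0575) under quantile normalization and 0.79 (0.0793) with the Gapdh covariate. Its adjusted p was 0.0510 without the filter, and without any 1 of STAT5ca_213, STAT5ca_159, STAT5Δ750_92, STAT5Δ750_165, STAT5Δ750_174 and STAT5Δ750_160 it was 0.0533 to 0.0828. The STAT5ca change was 0.91 under median scaling (adjusted p = 0.0300).

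Manf, a small protein held in the compartment and released under stress, had gland signals of 1072, 797.9 and 1268. Its signals were 1031 to 2479 with a median of 1556 in STAT5ca and 1202 to 2590 with a median of 1965 in STAT5Δ750 tumours, and both groups overlapped the glands. Manf had log2 changes of 0.63 ± 0.29 (adjusted p = 0.143) and 0.91 ± 0.30 (adjusted p = 0.0405). Under median scaling the STAT5ca change was 0.93 (adjusted p = 0.0489). The STAT5Δ750 call was not kept without gland_1, 4 or 6 (adjusted p = 0.105, 0.207 and 0.0545), where the changes were 0.94, 0.73 and 1.06. Nor was it kept with the actin covariate (0.72, adjusted p = 0.146), with the Gapdh covariate (0.84, adjusted p = 0.0736), or without any 1 of STAT5Δ750_254, STAT5Δ750_92, STAT5Δ750_165, STAT5Δ750_174 and STAT5Δ750_160 (0.0541 to 0.0735). Creld2, another secreted protein of this response, had log2 changes of 0.02 and 0.31.

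Both members of the translocation machinery passed in STAT5Δ750 tumours, beside 7.61% of all genes called higher there. Sec61b, a subunit of the channel through which new proteins enter, had gland signals of 800.4, 1111 and 1520. It was at 1006 to 1724 with a median of 1244 in STAT5ca tumours and at 1659 to 2211 with a median of 1892 in STAT5Δ750 tumours. The STAT5Δ750 tumours lay above all glands, and the STAT5ca tumours overlapped them. Sec61b had log2 changes of 0.19 ± 0.23 (adjusted p = 0.605) and 0.77 ± 0.23 (adjusted p = 0.0281). The latter was 0.54 (adjusted p = 0.186) without gland_1 and 0.78 (0.0987) without gland_4. It was 0.75 without STAT5Δ750_165 (0.0508) and 0.75 with the actin ratio as a covariate (0.0688). Ssr1, a subunit of the translocon-associated complex, had gland signals of 971.5, 673.2 and 1242. It was at 1194 to 1985 with a median of 1333 in STAT5ca and 1342 to 2124 with a median of 1744 in STAT5Δ750 tumours. Its log2 change was 0.65 ± 0.23 (adjusted p = 0.0578) and 0.86 ± 0.24 (adjusted p = 0.0170). The STAT5Δ750 change was 0.89 (0.0556) without gland_1 and 0.63 (0.141) without gland_4. The STAT5ca value passed without gland_6 (0.0378), STAT5ca_124 (0.0490) or STAT5ca_177 (0.0319). Among other settings, it also passed under median scaling (0.94, adjusted p = 0.0146) and with array quality weights (0.67, adjusted p = 0.00596).

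Of the 7 genes of degradation, which carry misfolded proteins back to the cytosol and mark them for the proteasome, 0 passed in either comparison. This stands beside 13.2% and 14.0% of all genes called lower and is too few genes to tell from those shares. In each comparison 5 of the 7 changes were below 0. With array quality weights Derl1, Herpud1 and Syvn1 were called lower in STAT5ca tumours (adjusted p = 0.000146, 0.0190 and 0.0164) and Derl1 in STAT5Δ750 tumours (0.000896). In that setting 2551 and 2468 of all 9252 genes were called lower, more than in the main fit. The median log2 change of the 7 genes was -0.60 in STAT5ca and -0.55 in STAT5Δ750 tumours. Under median scaling, where the median of all genes was 0.25 for STAT5ca, the falls in STAT5ca tumours were smaller. Derl1, Herpud1 and Syvn1 then had -0.31, -0.57 and -0.38 (adjusted p = 0.507, 0.452 and 0.458), and Edem1 had 0.07. Derl1, a channel protein, had signals of 1524, 1380 and 1376 in gland, 738.2 to 1858 in STAT5ca and 707.3 to 1221 in STAT5Δ750 tumours. The one tumour above the glands was STAT5ca_177, the sample near the floor for Krt8, and the other 12 lay below them. The log2 change was -0.60 ± 0.26 (adjusted p = 0.114) and -0.67 ± 0.26 (adjusted p = 0.0832), and without STAT5ca_177 it was -0.76 (adjusted p = 0.00495) and -0.67 (adjusted p = 0.0125). The other tested probe sets of Derl1 did not pass in a fit of all probe sets, and their directions were mixed. They gave -0.48, 0.32 and -0.47 in STAT5ca and -0.51, 0.47 and -0.66 in STAT5Δ750 tumours. Syvn1, the ubiquitin ligase HRD1, had -0.67 ± 0.29 (adjusted p = 0.115) and -0.55 ± 0.30 (adjusted p = 0.199). With the actin ratio as a covariate Syvn1 fell by 1.33 (adjusted p = 0.0151) and by 0.94 (adjusted p = 0.0257) on the log2 scale.

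Herpud1, a membrane organiser of the ligase, was uneven among the tumours. It had signals of 690.7, 821.4 and 806.7 in gland. In tumours they were 257.0 to 1175 with a median of 362.7 for STAT5ca and 177.3 to 1366 with a median of 430.4 for STAT5Δ750. STAT5ca_169 and STAT5Δ750_254 exceeded all glands, and the log2 changes of -0.86 and -0.74 did not pass. Derl3 ran from 97.3 to 249.1 in gland and from 24.1 to 318.2 across the tumours, again with STAT5Δ750_254 highest. Sel1l, the partner of Syvn1, reached 1008 in STAT5ca_169 and lay between 104.9 and 528.6 in the other tumours. Edem1, which extracts glycoproteins for degradation, and Derl2 had log2 changes of -0.22 and 0.28 in STAT5ca and -0.13 and 0.21 in STAT5Δ750 tumours.

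Sensors and transcription factors of the response did not pass in either comparison. Eif2ak3 (PERK) had log2 changes of 0.03 and -0.01, with 95% intervals of -0.52 to 0.58 and -0.57 to 0.55. Atf6 had -0.06 and -0.12, with intervals of -0.41 to 0.30 and -0.48 to 0.25. Xbp1 varied in gland itself, with signals of 2508, 1843 and 4355, and had log2 changes of 0.35 ± 0.32 and 0.56 ± 0.33. With array quality weights Xbp1 passed in STAT5Δ750 tumours (0.64, adjusted p = 0.0451), beside 21.6% of all genes called higher. Atf4 had -0.05 ± 0.24 and 0.37 ± 0.24. Ddit3 (CHOP), a factor of prolonged stress, was even in gland at 218.1 to 232.5 and uneven in tumours at 118.7 to 324.7, with log2 changes of -0.29 and -0.23.

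Of the 4 targets of the ATF4 arm, 1 was lower in STAT5ca and 1 was higher in STAT5Δ750 tumours. Of all genes, 13.2% were called lower in the former and 7.61% higher in the latter. These 4 genes are too few to tell from those shares. Asns, asparagine synthetase, had signals of 247.1, 208.1 and 376.4 in gland. It was 354.0 to 880.9 with a median of 532.4 in STAT5ca tumours and 431.1 to 1898 with a median of 814.8 in STAT5Δ750 tumours. The STAT5Δ750 tumours lay above all glands with STAT5Δ750_178 highest, and 1 STAT5ca tumour, STAT5ca_171, lay below gland_6. The log2 change was 0.99 ± 0.40 (adjusted p = 0.0917) and 1.56 ± 0.41 (adjusted p = 0.0130), and the latter, 2.94-fold, was the widest change among members called. It was 1.497 (adjusted p = 0.0587) without gland_1 and 1.38 (0.0844) without gland_4. Without STAT5Δ750_178 the STAT5ca value passed at 0.0463 with the same log2 change, since that array enters it through the shared spread alone. It also passed under median scaling (1.28, adjusted p = 0.0433) and with array quality weights (0.94, adjusted p = 0.0100).

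Chac1, which degrades glutathione, was the one member called lower. Its signals were 134.8, 204.3 and 129.9 in gland, 27.4 to 119.0 with a median of 43.9 in STAT5ca tumours, and 59.8 to 223.6 with a median of 100.6 in STAT5Δ750 tumours. All STAT5ca tumours were below the glands, and STAT5Δ750_178 was above them. It fell by 1.41 ± 0.43 on the log2 scale in STAT5ca tumours (adjusted p = 0.0288), and its change in STAT5Δ750 tumours was -0.54 ± 0.44 (adjusted p = 0.400). The STAT5ca call was not kept without gland_1, 4 or 6, where the changes were -1.50, -1.21 and -1.53 (adjusted p = 0.0751, 0.154 and 0.0601), or without STAT5ca_171 (-1.32, 0.0528). Under median scaling the change was -1.14 (0.104), after quantile normalization it was -1.21 (0.0810), and the actin covariate gave -1.55 (0.114).

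Trib3, a pseudokinase that feeds back on ATF4 and CHOP, had signals of 53.6 to 61.8 in gland, 42.5 to 393.0 in STAT5ca and 93.4 to 471.9 in STAT5Δ750 tumours. All 6 STAT5Δ750 tumours exceeded the glands. The log2 change of 1.65 ± 0.61 did not pass (adjusted p = 0.0652), and it passed without STAT5ca_169 (0.0346) or STAT5Δ750_254 (0.0433). Among other settings, it passed under quantile normalization (adjusted p = 0.0430), with probe sets averaged (0.0359), with only the 2 groups (0.0274) and with array quality weights (0.00472). A second probe set gave 2.38 ± 0.67 (adjusted p = 0.0223). Ppp1r15a (GADD34), which restores translation, had -0.59 ± 0.22 (adjusted p = 0.0747) in STAT5ca and -0.37 ± 0.23 in STAT5Δ750 tumours. The STAT5ca value passed without STAT5ca_123 (0.0367) and with array quality weights (0.0104).

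**Figure D3:**
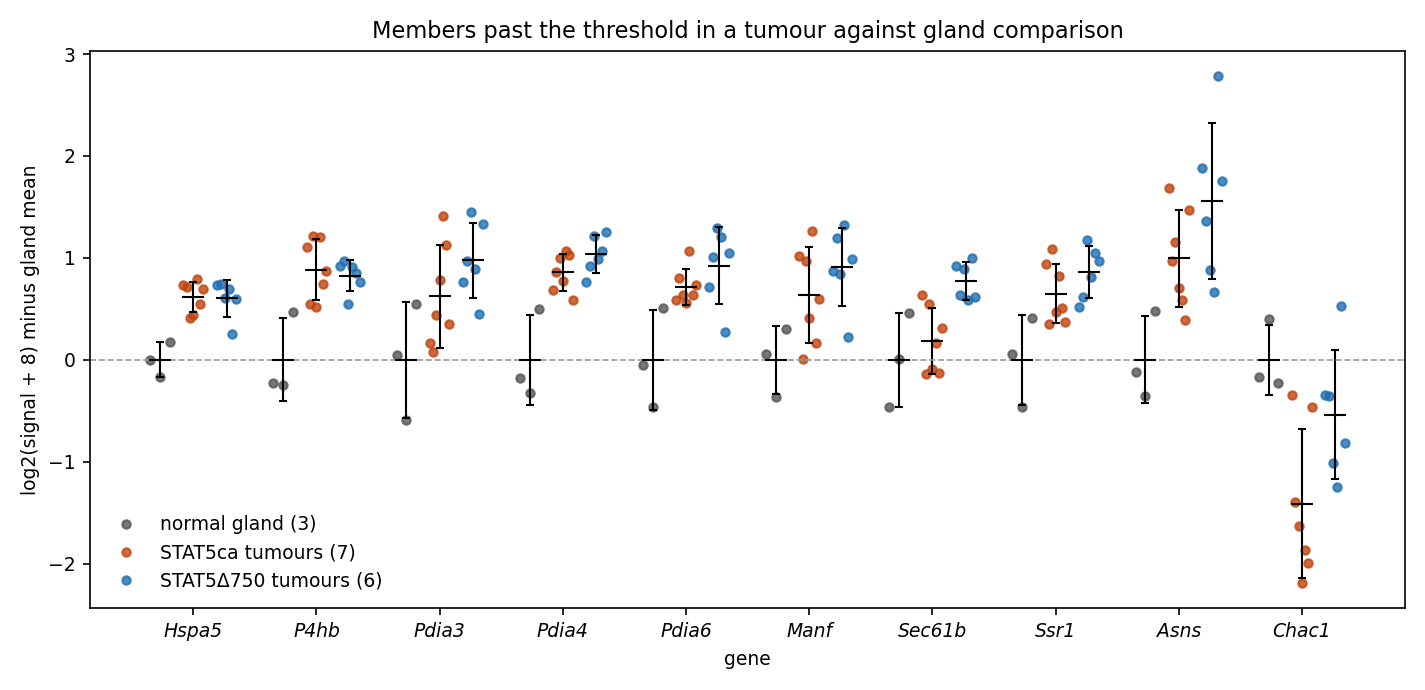
Log2(signal + 8) of the 10 members past the threshold, minus the mean of the 3 glands (y axis), for each array; grey is gland, red STAT5ca and blue STAT5Δ750, and black bars are the group mean ± SD. Pdia4 and P4hb tumours all lie above the glands, Asns is highest in STAT5Δ750_178 and Chac1 is low in STAT5ca tumours.

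Between the tumour types 0 of the 33 members passed, as did 0 of the 9252 genes (0% called), under limma and under each other setting run. At an unadjusted p under 0.05 there were 3 members, beside 5.67% (525) of all genes. They were Sec61b with a log2 difference (STAT5ca minus STAT5Δ750) of -0.59 ± 0.18 (unadjusted p = 0.00597, adjusted p = 0.809), Chac1 with -0.87 ± 0.34 (adjusted p = 0.835) and Atf4 with -0.42 ± 0.19 (adjusted p = 0.871). Differences over the members ran from -0.87 to 0.14. The half-width of the 95% interval was 0.24 at its narrowest and 1.20 at its widest, so the data do not show that the tumour types are alike. Hspa5 had a difference of 0.01 with an interval of -0.27 to 0.29. Members that passed in STAT5Δ750 but not in STAT5ca tumours (Pdia3, Manf, Asns, Sec61b, Ssr1) were thus not shown to differ between them.

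Promoter elements were set beside the calls. Of the 9 holders of the ER stress element, 2 (Hspa5 and Pdia6) were higher in each comparison. Among the 20 tested members with a promoter entry but no such element, 2 were higher in STAT5ca and 6 in STAT5Δ750 tumours. Of all genes, 6.72% and 7.61% were called higher. Of the 4 holders of the ATF4 element, Asns was higher in STAT5Δ750 tumours and Chac1 lower in STAT5ca tumours, while Herpud1 and Trib3 did not pass. These counts are a description of few genes.

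Other genes of the same machinery were listed by function, also with earlier results of these data known. Their counts stand beside 6.72% and 7.61% of all genes called higher and 13.2% and 14.0% called lower. Among 28 tested genes of translocation and N-glycan transfer, 7 were higher in STAT5ca and 9 in STAT5Δ750 tumours (25.0% and 32.1%), with 0 lower, and median log2 changes of 0.42 in both. Krtcap2 and Ddost, subunits of the oligosaccharyltransferase, rose by 1.001 and 0.88 on the log2 scale in STAT5ca and by 1.15 and 0.86 in STAT5Δ750 tumours. Sec61a1, the pore of the channel, rose by 1.12 in both, and Ssr2, a partner of Ssr1, by 1.46 and 1.55. Among 31 other folding genes, 4 were higher in STAT5ca tumours, and 3 were higher and 1 lower in STAT5Δ750 tumours. The prolyl isomerases Fkbp2 (1.05 and 0.87) and Ppib (0.76 and 0.71) were higher in both. The oxidases that recharge disulfide isomerases went apart in STAT5Δ750 tumours, where Ero1a rose by 1.501 ± 0.40 (adjusted p = 0.0157) and Ero1b fell by 1.37 ± 0.39 (adjusted p = 0.0223).

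Among 22 other degradation genes, 2 were higher and 1 lower in STAT5ca tumours and 2 were higher and 2 lower in STAT5Δ750 tumours, so that 9.09% were higher in each, near the share of all genes. Rad23b, a shuttle to the proteasome, rose by 0.84 and 1.06, and Ufd1, a cofactor of the extraction ATPase, rose by 0.49 and 0.54. The ligase Marchf6 fell by 0.65 and 0.58, and the deglycosylase Ngly1 fell by 1.17 in STAT5Δ750 tumours. Among 23 other sensors and regulators, 0 passed in STAT5ca tumours and 2 were higher in STAT5Δ750 tumours, the stress factors Nupr1 (1.77) and Atf3 (1.39). Among 30 other ATF4 targets, 5 were higher and 2 lower in STAT5ca tumours and 6 were higher and 2 lower in STAT5Δ750 tumours. Psat1, an enzyme of serine synthesis, rose by 1.62 ± 0.33 (adjusted p = 0.00284) and 2.35 ± 0.34 (adjusted p = 0.000229). The tRNA synthetase Sars rose by 1.11 and 1.18, and Nars rose by 0.77 in STAT5Δ750 tumours. The glutamine carrier Slc1a5 fell by 2.46 and 2.63, and the secreted protein Stc2 fell by 1.81 in STAT5ca tumours.

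Across the 13 tumours, members were set against Hspa5, for the folding arm, and Asns, for the ATF4 arm, after centring on each tumour type's mean. The 64 relations between members were computed within a family of 18502 over all genes, and 0 passed after Benjamini-Hochberg adjustment over that family, for members and for all genes. Before adjustment, 3 of 32 members had a permutation p under 0.05 with Hspa5 and 7 of 32 with Asns, beside 4.26% and 6.75% of all genes. Asns and Chac1 varied together, with Pearson r = 0.87 (permutation p = 0.00015, adjusted p = 0.629) and Spearman rho = 0.88 (permutation p = 0.0003). This r was the highest that any of 9251 genes had with Asns. It was 0.92 within each tumour type, 0.88 without STAT5ca_177 and 0.82 without STAT5Δ750_178 and STAT5Δ750_174, the 2 tumours farthest from the median of Asns. Across all arrays the glands did not follow this line, since they had low Asns and high Chac1 signals. Among these tumours, r with the log2 actin ratio was 0.02 for Asns and 0.08 for Chac1.

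Other members related to Asns less closely. Atf4 itself had r = 0.61 (rho = 0.68, permutation p = 0.0140 and 0.0127), and 0.57 without the 2 farthest tumours, while Trib3 had r = 0.05. Sec61b, Edem1 and Derl1 had r of 0.61, 0.56 and 0.52. Pdia6 and Pdia3 had r of -0.77 and -0.66, and -0.51 and -0.74 without the 2 farthest tumours. With Hspa5, Herpud1 had r = 0.68 (rho = 0.57, permutation p = 0.0203 and 0.0557), Pdia6 had 0.67 (rho = 0.37, permutation p = 0.0295 and 0.228) and Hsp90b1 had 0.63 (rho = 0.52, permutation p = 0.0258 and 0.0847). Without STAT5Δ750_178 and STAT5ca_213 these fell to 0.46, 0.30 and 0.51, so these relations rest in part on those tumours. They were the 3 highest of 32, and the median r of members with Hspa5 was 0.19, beside 0.03 for all genes. P4hb and Pdia4, also called higher in both tumour types, had r of 0.19 and -0.28 with Hspa5.

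**Figure D4:**
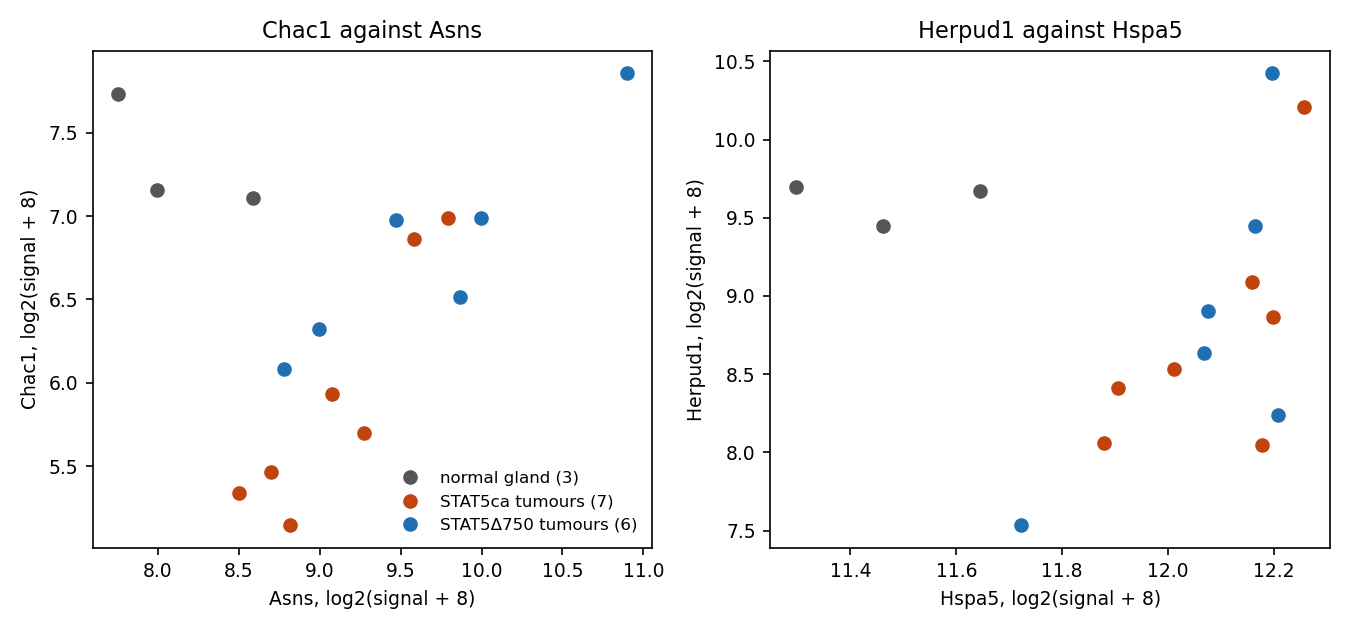
Chac1 against Asns (left) and Herpud1 against Hspa5 (right), both axes in log2(signal + 8), with 1 point per array; grey is gland (3), red STAT5ca (7) and blue STAT5Δ750 (6). The 13 tumours rise together in the left panel (centred r of 0.87) and the 3 glands lie at low Asns, and the lowest blue point on the right is STAT5Δ750_178.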

How the data were processed

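Total RNA was labelled as biotin cRNA and hybridised to 16 arrays. The authors deposited MAS5 signals, an intensity on a linear scale for 22690 probe sets, scaled to a trimmed mean of about 250.1 on each array. No version of MAS5 is given in the submitters' processing notes, and no date or batch in the labels. Of the probe sets, 20393 carried 1 symbol and 691 several. Signals were used as log2(signal + 8), with 1 probe set per gene and a filter at the 40th percentile (35.4) on at least 3 arrays. limma 3.58.1 in R 4.3.3 was fitted to 3 groups (13 residual and 2.63 prior degrees of freedom), two-sided. The script was tested on simulated data. Correlations used 100000 permutations within tumour type. Alternatives covered scaling, offset, filter, probe sets, weights, RNA quality covariates and left-out arrays. The number of arrays limits the precision. Members and lists were chosen with earlier results of these data known. Every member is named, with full statistics for those past the threshold, and up to 4 genes per other list and comparison with the smallest adjusted p. Promoters came from RefSeq.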

Additional observations from a re-analysis of the deposited data

Results flagged for a closer look

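Of 68 groups of 6 or 7 tumours checked, 1 per member and tumour type, 4 held a single array far from the rest, and chance gives about 1 in 20 groups. In STAT5Δ750_178, Hspa5 was the lowest of its group at 3369, where the other 5 tumours lay between 4286 and 4722. The same array had Dnajb11 at 380.9, beside 470.9 to 503.0, and Sdf2l1 at 170.0, beside 362.8 to 562.0. This tumour also had the highest Asns (1898), Chac1 (223.6) and Xbp1 (5822) signals of its group and the lowest Herpud1 (177.3). Its summed milk gene signal of 69149 was the highest of the 16 arrays, its muscle markers summed to 11542 beside 211.2 to 2399 in the other 5, and its adipocyte markers to 7795 beside 1197 to 3739. In STAT5ca_177, Derl1 was at 1858, beside 738.2 to 996.3 in the other 6 STAT5ca tumours. That array had the Krt8 signal of 25.3 and a summed macrophage marker signal of 45344, beside 8653 to 20091 in the others of its group. The part of cell makeup in these values was not tested.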

How the results depend on the processing

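No paired analysis was possible because the groups share no replicate numbers. The gland group of 3 arrays limits most calls. Over 29 settings, 2868 member values were recomputed: 2753 kept their side of the threshold, 112 of them with the sign turned and neither value past it, 73 lost and 42 gained a call, and 0 called values reversed. Members higher in STAT5ca tumours numbered 4 as reported, 9 under median scaling, 2 with probe sets averaged, 11 with array quality weights, 1 with the actin covariate, and 0 to 5 with 1 array left out. Median scaling added Asns, Canx, Manf, Pdia3 and Ssr1, beside 13.9% of all genes called higher. Weights added the same genes with Calr and Hyou1, beside 24.5% of all genes. Members lower there numbered 1 as reported, 0 under median scaling or quantile normalization, 0 with the filter at the 60th percentile, which left Chac1 untested, 6 with weights, and 0 to 2 with 1 array left out. In STAT5Δ750 tumours 9 members were higher as reported, 10 with probe sets averaged and 12 with array quality weights, which added Hyou1, Trib3 and Xbp1. They numbered 5 with the actin covariate and 1 to 10 with 1 array left out. The shares of all genes called higher were 7.03% with probe sets averaged, 21.6% with weights and 5.53% with the actin covariate. Members lower there numbered 0 as reported, 2 with weights, 1 with only the 2 groups in the fit, 1 with the actin covariate, and 0 to 1 with 1 array left out. All genes called for STAT5ca numbered 1844 as reported, 4818 with weights, 921 with the actin covariate, and 959 to 2859 with 1 array left out, and for STAT5Δ750 2000 as reported, 4463 with weights, and 953 to 2746. The cause of these shifts was not tested. The STAT5ca split was 622 higher and 1222 lower as reported, 1284 and 866 under median scaling, where the median of all genes was 0.25, and 870 and 1134 under quantile normalization. The STAT5Δ750 split was 704 and 1296, and 859 and 958 under median scaling. Member relations at permutation p under 0.05 numbered 10 as reported, 19 under median scaling, and 6 to 13 with 1 tumour left out (6 without STAT5ca_169 or STAT5Δ750_178). The setting without STAT5ca_124 and STAT5Δ750_254 and the fit of other probe sets were chosen after seeing the data.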
